A study of Mus musculus with 6 samples.

Results

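The genes described here encode the digestive enzymes of the exocrine pancreas, their granule proteins and the transcription factors that mark the acinar cell, followed through RNA of isolated mouse pancreatic islets. They were taken by name from a list of 33 acinar genes, and each was linked to an assembled locus by the lengths of its exons and introns on the same chromosome and strand. Of the 33 genes, 32 were used, out of 39470 loci with counts. They comprised 15 peptidases, 6 enzymes of lipid digestion, 8 other secreted or granule proteins and 3 transcription factors. Bhlha15 was left out because 98.06% of its exonic bases were shared with another locus.

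The islets came from C57BL/6 mice aged 14 weeks, in 2 groups of 3 libraries each: a high fat diet for 8 weeks, and a normal diet. The labels name no allele or agent beside the diet. Total RNA was depleted of ribosomal RNA and sequenced without poly(A) selection. The libraries held 106332715 to 135353777 counted reads on the high fat diet and 104657337 to 133633996 on the normal diet. The labels do not say whether libraries came from separate animals or pools, so each p-value reflects variation among the libraries at hand, part of which may be technical. High fat library 3 stood apart on the second principal component of all loci, at -59.4, against 32.3 and 25.5 in the other high fat libraries and -8.75 to 8.81 in the normal diet libraries. The count columns abbreviate the diets. The abbreviation read as high fat is not spelled out in the sources used here, and every direction below depends on that reading.

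Acinar cells make up most of the pancreas around the islets and secrete enzymes, many as inactive zymogens stored in granules, into the duct system. Trypsin activates the other zymogens in the gut, where peptidases cut protein, lipases cut dietary fat and ribonuclease and amylase cut RNA and starch. The factors PTF1A, RBPJL, NR5A2 and BHLHA15 maintain this programme of gene expression. Islets are separated from acinar tissue by enzyme digestion and picking, and acinar cells commonly remain attached to them. Counts from bulk RNA do not show which cells a read came from, and fewer cells of a type and less RNA per cell cannot be told apart in them.

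The PTF1 complex, which contains PTF1A and RBPJL, is known to bind an E-box together with a TC-box, and the 3 promoters of the list that hold the letters of both are shown for that reason. The windows run from 250 bases before to 50 bases after the start in RefSeq on build GRCm38.p6, which is not the mm9 build of the counts. Capitals mark CACCTG (an E-box, CAGGTG on the opposite strand) and TTTCCCA (the TC-box letters, TGGGAAA on the opposite strand). Both strands were searched, and no match of one overlapped the other in these windows.
Prss2, chr6:41521526-41521825, plus strand: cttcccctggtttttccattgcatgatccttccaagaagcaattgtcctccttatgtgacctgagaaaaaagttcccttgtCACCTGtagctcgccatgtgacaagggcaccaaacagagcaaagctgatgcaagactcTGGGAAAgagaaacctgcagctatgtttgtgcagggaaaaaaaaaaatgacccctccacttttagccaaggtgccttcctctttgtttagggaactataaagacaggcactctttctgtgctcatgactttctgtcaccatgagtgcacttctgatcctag
Cela2a, chr4:141825956-141826255, minus strand: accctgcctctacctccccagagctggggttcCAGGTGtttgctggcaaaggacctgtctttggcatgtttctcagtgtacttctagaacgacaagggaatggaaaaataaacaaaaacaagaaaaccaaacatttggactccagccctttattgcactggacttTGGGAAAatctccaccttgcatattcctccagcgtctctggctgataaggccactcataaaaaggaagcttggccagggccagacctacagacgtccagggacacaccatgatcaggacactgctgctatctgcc
Cel, chr2:28563354-28563653, minus strand: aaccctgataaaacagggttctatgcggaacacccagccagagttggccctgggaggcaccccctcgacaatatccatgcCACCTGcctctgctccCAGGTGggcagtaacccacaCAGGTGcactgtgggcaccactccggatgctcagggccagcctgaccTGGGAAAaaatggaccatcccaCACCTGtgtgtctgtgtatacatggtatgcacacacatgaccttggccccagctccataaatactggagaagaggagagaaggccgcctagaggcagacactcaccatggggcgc
Promoter windows were found for 27 of the 33 genes. A gene was counted as a match if any of its windows matched, whereas the background is a share of single windows. The 2 percentages in each comparison below are therefore not in the same unit. CACCTG occurred in 16 of the 27 (59.3%), against 20.2% of 32851 promoter windows of the same length. TTTCCCA occurred in 5 of the 27 (18.5%), against 8.06% of all windows. Both were present in 3 of the 27 (11.1%, the 3 shown), against 1.61% of all windows. The NR5A2-type letters AAGGTCA occurred in 4 of the 27 (14.8%), against 4.72%, and the TATA-box letters TATAAA in 11 of the 27 (40.7%), against 13.6%. A match describes letters in a window and is not a measured binding site, and in Prss2 and Cela2a the E-box and TC-box letters do not stand next to each other.

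Acinar transcripts were present in every library. The 32 loci together took 0.589%, 1.23% and 1.05% of counted reads in the 3 high fat libraries, against 0.482%, 0.874% and 0.777% in the 3 normal diet libraries. The means were 0.958% ± 0.331 on the high fat diet and 0.711% ± 0.204 on the normal diet (SD, n = 3 each), a ratio of 1.35. High fat library 1 lay below normal diet libraries 2 and 3, so the groups overlapped. In other terms, 1 counted read in 169.7, 81.3 and 94.8 was acinar on the high fat diet and 1 in 207.5, 114.5 and 128.7 on the normal diet. The difference of the means was 0.247 percentage points with all libraries and 0.199 without high fat library 3. It was 0.111 without high fat library 2, 0.133 without normal diet library 1 and 0.431 without high fat library 1. Within each diet the lowest and highest libraries lay further apart than the means of the diets.

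**Figure D1:**
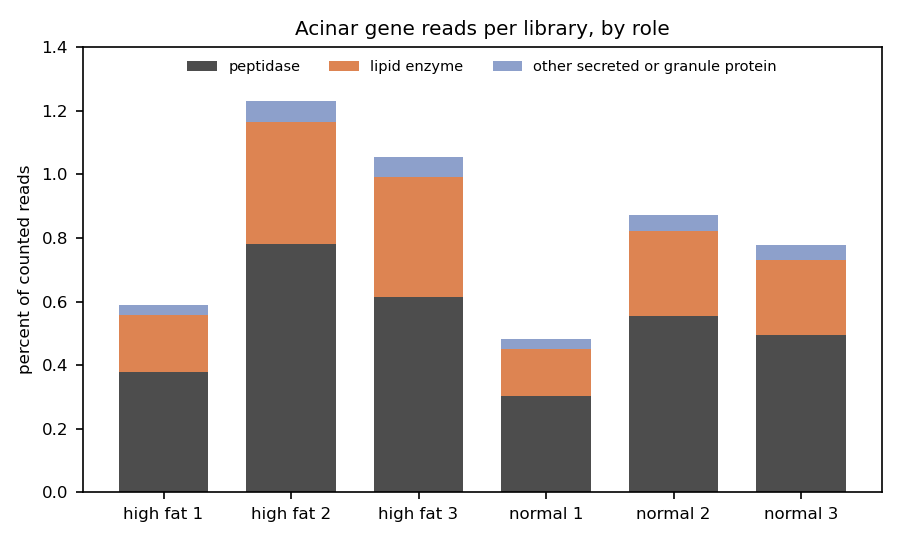
Percent of counted reads (y axis) taken by the acinar peptidases, lipid enzymes and other secreted or granule proteins in each of 6 libraries, high fat left of normal diet. The high fat libraries sum to 0.589%, 1.23% and 1.05% and overlap the normal diet libraries at 0.482%, 0.874% and 0.777%; the transcription factors are too low to be drawn.

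A single gene, the trypsin Try5, passed the test between diets among the 31 that could be tested, and none fell (edgeR quasi-likelihood fit over 23983 loci, Benjamini-Hochberg adjusted p under 0.05). Of all loci tested, 5.95% were called higher and 4.86% lower on the high fat diet. The share of 1 in 31 was therefore no larger than the background. At an unadjusted p under 0.05, 11 of the 31 were higher and 0 were lower, against 15.4% and 16.4% of all loci. With library totals in place of TMM, 2 of the 31 were higher and 1 was lower at that p, against 3.54% and 30% of all loci. Without high fat library 2, or without normal diet library 1, 1 of the genes had an unadjusted p under 0.05. No share of all loci at that p is given for these fits, so the lower count cannot be read as particular to the acinar genes. Calls over all loci after adjustment dropped too. Leaving out high fat library 2 left 0.225% of loci passing as higher and 0.115% as lower. Leaving out normal diet library 1 left 0. DESeq2's Wald test, run as an alternative, called 11 of 30 genes higher, a larger share than the 11.8% of all loci. A fit with the replicate number as a block called 6 of 31 higher, against 0.225% of all loci, although the numbers do not pair the samples. Both shares exceeded their background, but the genes varied together and were chosen with earlier results known. Without high fat library 3, edgeR called Try5 and Sycn higher and Amy1 lower, 2 and 1 of 32 genes, against 12.4% and 7.87% of all loci, so that neither share exceeded its background. Ptf1a was too low to be tested.

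The scaling moves every fold change given here. With the trimmed mean of M-values (TMM), the scaling of the test, 27 of the 31 genes had a log2 fold change above 0, against 45.5% of all loci. With library totals, 24 of the 31 did, against 24.3% of all loci; Gp2, Rbpjl and Ctrc are above 0 under TMM and below 0 under totals. TMM raised the median of all loci by 0.20, to -0.05, against -0.25 with library totals. The median log2 fold change of the 31 was 0.59 under TMM and 0.39 under library totals. Counts per 1e6 counted reads (CPM) below are shares of library totals, whereas log2 fold changes with their SE use TMM unless stated.

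**Figure D2:**
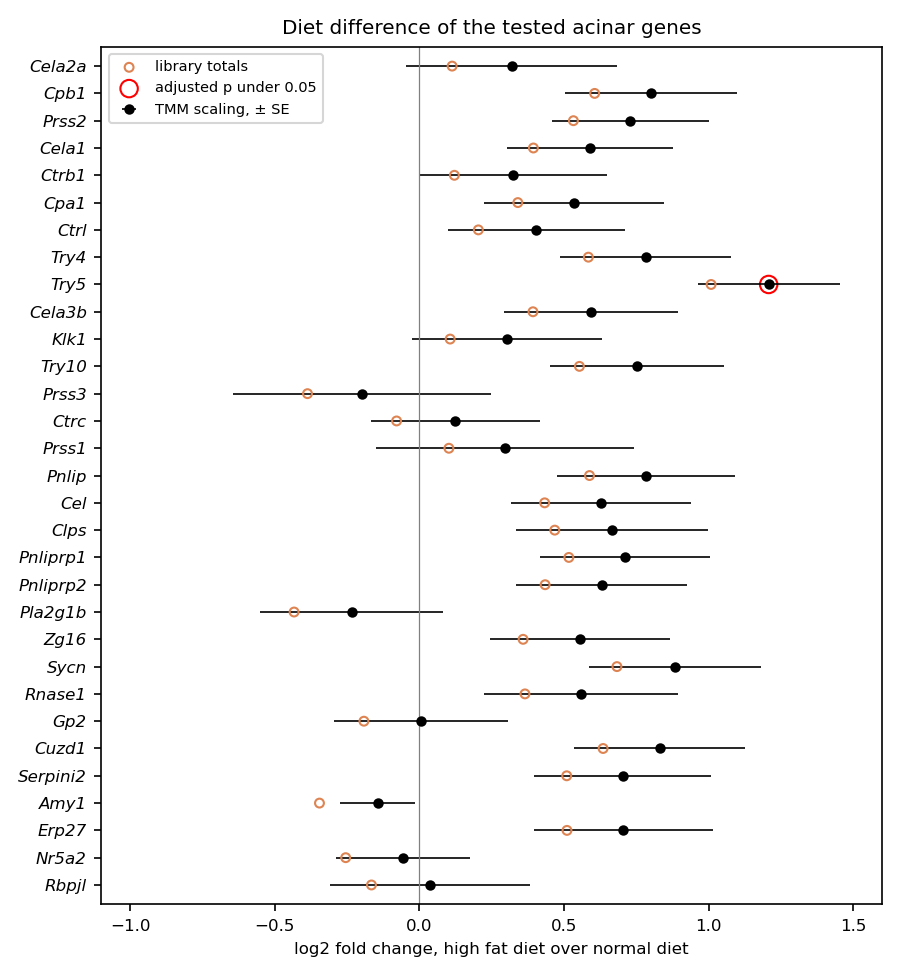
log2 fold change, high fat over normal diet (x axis), for the 31 tested acinar genes. Black points with bars are TMM estimates ± SE, open points use library totals, and the ring marks an adjusted p under 0.05; only Try5, at 1.21, carries a ring.

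The peptidases held 0.378%, 0.78% and 0.614% of counted reads on the high fat diet, against 0.303%, 0.554% and 0.494% on the normal diet. Under TMM, 14 of the 15 had a log2 fold change above 0 (13 with library totals), with a median of 0.54. Try5 is a member of the mouse trypsin family (mm9 chr6:41261231-41264709, minus strand). It had 166.5, 308.7 and 259.5 CPM on the high fat diet, against 92.0, 148.7 and 124.4 CPM on the normal diet. Every high fat library lay above every normal diet library, with means of 244.9 ± 72.2 CPM and 121.7 ± 28.5 CPM (SD, n = 3 each). Try5 rose by a log2 fold change of 1.21 (SE 0.246), with an adjusted p of 0.0278 in the edgeR quasi-likelihood fit after Benjamini-Hochberg adjustment. The call was lost without high fat library 2 or normal diet library 1, 2 or 3 (adjusted p 0.0775 to 0.115 by edgeR, log2 fold changes 0.99 to 1.37). Without normal diet library 1, 2 or 3, however, 0 of all loci were called, so the loss there was not particular to Try5. Without high fat library 2, 0.225% of all loci were called higher. The call was kept without high fat library 1 (adjusted p 0.0418 by edgeR, log2 fold change 1.43) and without high fat library 3 (adjusted p 0.0122 by edgeR, log2 fold change 1.19). In those fits 0.377% and 12.4% of all loci were called higher. Of the 100-base windows of the Try5 transcript, 25.6% also occur in the related gene Try4, so reads could be divided between them.

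Try5 was also the one gene of the 31 whose CPM groups did not overlap in the high fat direction, where 5.81% of all loci did not overlap, and 0 of the 31 did so in the lower direction, against 34.9% of all loci. Its close relative Try4, chosen for naming after its values were seen, had 164.2, 340.5 and 281.3 CPM on the high fat diet and 114.9, 217.7 and 191.6 CPM on the normal diet. High fat library 1 overlapped the normal diet range there, and the log2 fold change was 0.78 (SE 0.297, adjusted p 0.112 by the same edgeR test). Of the 100-base windows of the Try4 transcript, 30.2% also occur in Try5 or Try10.

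Cela2a, an elastase of the pancreas, lies at mm9 chr4:141370878-141381918 on the minus strand. It was the gene with the highest level per length of locus exons. That level was 874.4 reads per kilobase and 1e6 counted reads (RPKM), averaged over the 6 libraries. Cela2a is therefore described first after the trypsins. It had 609.6, 1332.0 and 544.7 CPM on the high fat diet, against 495.2, 953.4 and 850.0 CPM on the normal diet. High fat libraries 1 and 3 were below normal diet libraries 2 and 3, and high fat library 2 was the highest of all. The log2 fold change was 0.32 (SE 0.365, adjusted p 0.579 by edgeR, Benjamini-Hochberg adjusted). Of the 100-base windows of the Cela2a transcript, 21.7% also occur in Ctrc, and 10.2% of the exonic bases of the locus are shared with another locus. Cpb1, carboxypeptidase B, which trims basic residues from peptide ends (mm9 chr3:20149383-20174651, minus strand), had 710.9, 1493.2 and 1600.7 CPM on the high fat diet, against 593.3, 1002.1 and 904.1 CPM on the normal diet. Only high fat library 1 lay within the normal diet range, and the log2 fold change was 0.80 (SE 0.299, adjusted p 0.107 by the same test). Cpb1 was linked through 9 of 10 equal introns and not a complete chain.

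Prss2, an anionic trypsin (mm9 chr6:41471775-41475078, plus strand), had 438.9, 841.4 and 761.7 CPM on the high fat diet, against 324.2, 567.1 and 520.1 CPM on the normal diet. High fat library 1 fell inside the normal diet range. The log2 fold change was 0.73 (SE 0.271, adjusted p 0.106 by edgeR, Benjamini-Hochberg adjusted). Cela1, another elastase, had 611.4, 1230.3 and 1137.4 CPM on the high fat diet and 506.0, 898.6 and 862.0 CPM on the normal diet, again with high fat library 1 inside the normal diet range (log2 fold change 0.59, SE 0.288, adjusted p 0.193 by the same test). Prss3, a low trypsin with 45.0% of its windows shared with related genes, had 1.52, 2.80 and 3.18 CPM on the high fat diet against 1.26, 4.41 and 4.13 CPM on the normal diet. Its groups overlapped, with a log2 fold change of -0.20 (SE 0.445, adjusted p 0.792 by the same test).

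The other peptidases did not pass the test. They were Cpa1 (carboxypeptidase A1), the chymotrypsins Ctrb1, Ctrl and Ctrc, the elastase Cela3b, the trypsins Try10 and Prss1, and the kallikrein Klk1. Their log2 fold changes ran from 0.12 for Ctrc to 0.75 for Try10, and all overlapped between diets in CPM. Prss1 was counted 14, 11 and 15 times on the high fat diet and 5, 15 and 16 times on the normal diet, too few to resolve a difference. The Cela3b locus also matches Cela3a, and 12.6% of the windows of Cela3b occur in it. Of the windows of Prss1, Try10 and Klk1, 21.8%, 11.6% and 6.08% occur in related genes.

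The lipid enzymes took 0.179%, 0.384% and 0.378% of counted reads on the high fat diet, against 0.148%, 0.268% and 0.238% on the normal diet. The ratio of the means was 1.44 and the groups overlapped. Pnlip, pancreatic triglyceride lipase (mm9 chr19:58744855-58756278, plus strand), had 865.4, 1861.3 and 1903.7 CPM on the high fat diet, against 699.4, 1236.7 and 1143.5 CPM on the normal diet. High fat library 1 lay within the normal diet range, and the log2 fold change was 0.78 (SE 0.308, adjusted p 0.122 by edgeR, Benjamini-Hochberg adjusted). Cel, bile salt-stimulated lipase, had 488.7, 1035.8 and 971.6 CPM on the high fat diet and 399.7, 780.5 and 668.4 CPM on the normal diet. Its groups overlapped through high fat library 1 (log2 fold change 0.63, SE 0.311, adjusted p 0.199 by the same test).

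Clps, colipase, the cofactor that anchors pancreatic lipase on fat droplets, had 102.0, 231.0 and 170.8 CPM on the high fat diet, against 75.4, 159.1 and 129.8 CPM on the normal diet. The groups overlapped (log2 fold change 0.67, SE 0.331, adjusted p 0.2 by the edgeR test). Pnliprp1, a relative of pancreatic lipase, had 289.0, 617.1 and 642.6 CPM on the high fat diet and 263.8, 433.7 and 384.8 CPM on the normal diet, with overlap through high fat library 1 (log2 fold change 0.71, SE 0.294, adjusted p 0.136 by the same test). Pnliprp2, another relative, had a log2 fold change of 0.63. Pla2g1b, the pancreatic phospholipase A2 (mm9 chr5:115916275-115924726, plus strand), was low, with 0.764, 1.77 and 1.51 CPM on the high fat diet against 1.35, 2.14 and 1.97 CPM on the normal diet. The groups overlapped in CPM, and its log2 fold change of -0.23 was the lowest of the 31 (SE 0.316, adjusted p 0.644 by the same test).

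Among the other secreted and granule proteins, Zg16, a zymogen granule lectin, had 91.0, 211.1 and 199.8 CPM on the high fat diet, against 92.9, 162.3 and 136.2 CPM on the normal diet. High fat library 1 was the lowest of all 6 (log2 fold change 0.55, SE 0.312, adjusted p 0.252 by edgeR, Benjamini-Hochberg adjusted). Sycn, syncollin, a protein of the zymogen granule membrane (mm9 chr7:29325904-29327229, plus strand), had 62.7, 124.2 and 81.3 CPM on the high fat diet and 36.6, 71.6 and 58.7 CPM on the normal diet. High fat library 1 lay within the normal diet range, and the log2 fold change of 0.88 (SE 0.298) carried an adjusted p of 0.0846 by the same test.

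Rnase1, pancreatic ribonuclease, had 63.5, 137.7 and 145.4 CPM on the high fat diet, against 58.4, 121.1 and 89.7 CPM on the normal diet, with overlap (log2 fold change 0.56, SE 0.335, adjusted p 0.281 by the edgeR test). Gp2, the major glycoprotein of the granule membrane, had 24.1, 52.9 and 47.9 CPM on the high fat diet, against 32.6, 51.9 and 58.1 CPM on the normal diet. Its log2 fold change of 0.01 under TMM became -0.19 with library totals (SE 0.301 and adjusted p 0.992 under TMM, by the same test). The remaining ones were Cuzd1, Serpini2, Erp27, and Amy1, with log2 fold changes of 0.83, 0.70, 0.71 and -0.14. The Amy1 locus also carries transcripts of Rnpc3, so its counts do not measure amylase alone. Its level did not follow the acinar sum, of which it is a part (r -0.16 for the TMM-scaled level and -0.34 with library totals). Of the amylases outside the list, the Amy2b locus averaged 18.5 CPM and Amy2a5 0.364 CPM, while Amy2a1 was linked to no locus and is not analysed here. They were named after their values were seen, and 47.4% of the windows of Amy2a5 and 11.4% of those of Amy2b occur in related amylase genes, so that these levels do not give the sum of amylase transcripts.

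The transcription factors were counted rarely. Nr5a2, a nuclear receptor, had 1.38, 2.16 and 2.76 CPM on the high fat diet, against 2.51, 2.65 and 2.37 CPM on the normal diet, with overlap (log2 fold change -0.06, SE 0.233, adjusted p 0.891 by edgeR, Benjamini-Hochberg adjusted). Rbpjl, a subunit of PTF1, had 0.986, 2.70 and 1.69 CPM on the high fat diet and 1.51, 2.17 and 2.33 CPM on the normal diet, with overlap (log2 fold change 0.04 under TMM and -0.17 with library totals, SE 0.346, adjusted p 0.953 by the same test). Ptf1a (mm9 chr2:19367290-19369128, plus strand), the founding subunit of that complex, was counted 6, 10 and 11 times on the high fat diet and 3, 7 and 20 times on the normal diet, and 40.38% of its exonic bases are shared with another locus. At these depths no difference in Ptf1a was detectable.

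Levels per length spanned 16913-fold between the highest and the lowest gene. The highest means of the 6 libraries, in RPKM, were those of Cela2a at 874.4, Pnlip at 760.8, Cpb1 at 703.3, Prss2 at 696.8, Cela1 at 655.4 and Ctrb1 at 601.0. The order differed between libraries: in high fat library 3, Pnlip had 1127.1, Cpb1 1071.4, Prss2 922.1 and Cela1 852.6 RPKM, all above Cela2a at 597.3 RPKM. Neighbours among these 6 differed by less than the range of either gene over the libraries. The length was that of the exonic bases of the assembled locus, which differs from the longest coding transcript in GENCODE M21. It was 912 bases for Cela2a, against 1070 in the transcript, 1689 against 1487 for Pnlip and 1494 against 2718 for Cpb1. The order of these genes therefore depends on the length used. Cel at 355.3, Cpa1 at 314.1 and Clps at 292.9 RPKM followed. At the other end stood Nr5a2 at 0.4, Rbpjl at 0.333, Prss1 at 0.131 and Ptf1a at 0.0517 RPKM. The 5 genes with most reads held 56.8% and the 10 with most reads 84.2% of all acinar reads.

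**Figure D3:**
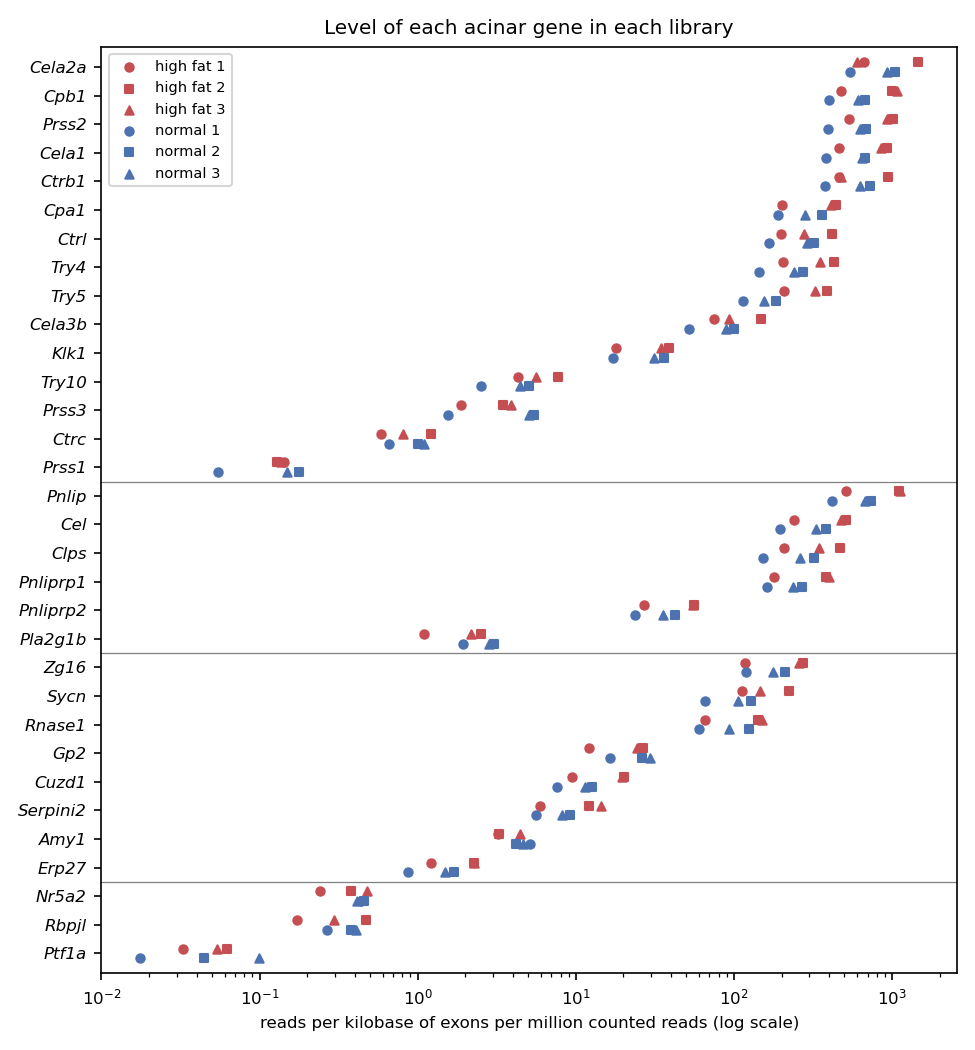
Level of each acinar gene in each of the 6 libraries, in RPKM on a log axis. Cela2a, with a mean of 874.4, and Pnlip, with 760.8, are at the high end and Ptf1a, with 0.0517, at the low end; high fat library 2 is the highest for 19 of the 31 tested genes.

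Most of the genes varied together from library to library. Over the 30 genes with at least 1 CPM on average, the median Pearson r between pairs of log2 levels scaled by TMM was 0.863 over 6 libraries, and 247 of 435 pairs exceeded 0.8. With library totals the median was 0.823 and 228 pairs exceeded 0.8. High fat library 2 was the highest library for 19 of the 31 tested genes, and normal diet library 1 the lowest for 24 of 31. The correlation of the TMM-scaled level with the summed CPM was 0.992 for Cpa1, 0.728 for Cela2a, 0.706 for Pla2g1b, 0.571 for Nr5a2 and -0.16 for Amy1. With library totals on both sides it was 0.982 for Cpa1, 0.673 for Cela2a, 0.544 for Pla2g1b, 0.328 for Nr5a2 and -0.34 for Amy1. These values are descriptions without a p, because the genes share libraries and make up the sum.

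The genes were also compared as shares of the acinar reads. Try5, Try4, Prss2 and Cuzd1 had high fat libraries entirely above normal diet libraries (4 of 31), against 0.142% of all loci scaled to the same acinar sum. Pla2g1b, Gp2, Ctrl, Klk1, Ctrc, Nr5a2 and Rbpjl were entirely below (7 of 31), against 19.2% of all loci. Neither 0.142% nor 19.2% is a like measure for these genes, since a higher acinar sum lowers every other locus on this scale. The 7 of 31 lay near the 19.2%, but no conclusion is drawn from either comparison. Of acinar reads, Try5 made up 2.82%, 2.51% and 2.46% on the high fat diet, against 1.91%, 1.7% and 1.6% on the normal diet. Gp2 made up 0.409%, 0.43% and 0.454% on the high fat diet, against 0.676%, 0.594% and 0.748% on the normal diet. The transcription factors together made up 0.041%, 0.0403% and 0.0429% on the high fat diet, against 0.0839%, 0.0559% and 0.0625% on the normal diet. No test was made of these shares.

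High fat library 3 stood apart in its make-up. Cela2a was 5.16% of acinar reads there, compared with 10.3% and 10.8% in the other high fat libraries and 10.3%, 10.9% and 10.9% in the normal diet libraries. Ctrb1, chosen for naming after its values were seen, was 4.01% there, against 6.96% and 6.78% in the other high fat libraries and 6.89%, 7.39% and 7.14% in the normal diet libraries. Both took a lower part of acinar reads in this library than in any other. The peptidases Ctrl at 2.32%, Cela3b at 1.81% and Ctrc at 0.0315% were also lowest there. Cela1 at 10.8%, Prss2 at 7.22%, Try4 at 2.67% and Try5 at 2.46% lay within the range of the other libraries. The lower share was therefore not common to all peptidases. In contrast, Cpb1 was 15.2% of acinar reads in high fat library 3, against 12.1% and 12.1% in the other high fat libraries and 11.5% to 12.3% in the normal diet libraries, and Pnlip was 18.1%, against 14.7% and 15.1% in the other high fat libraries and 14.2% to 14.7% in the normal diet libraries.

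Some of these departures went with the GC content of the transcripts. The GC content is that of the longest coding transcript in GENCODE M21 and not of the counted locus. For Cpb1 that transcript has 2718 bases, against 1494 exonic bases in the locus. On the log2 scale, high fat library 3 minus the mean of the other 5 libraries was -1.04 for Cela2a (GC content 55.6%), -0.81 for Ctrb1 (57.6%) and -0.62 for Ctrc (57.4%). It was 0.39 for Serpini2 (38.3%), 0.35 for Cpb1 (40.4%) and 0.30 for Pnlip (49.4%). Other genes of low GC content went the other way, with -0.14 for Nr5a2 (43.2%), -0.29 for Gp2 (48.9%) and -0.34 for Amy1 (40.2%). The Amy1 locus also carries transcripts of Rnpc3, and on the same measure it stood at -1.14 in high fat library 2 and 1.26 in normal diet library 1. The relation in high fat library 3 was thus partial. Over the 30 acinar genes the correlation of GC content with this departure was -0.55 in high fat library 3, and 0.11 and 0.49 in the other high fat libraries, against -0.33, 0.34 and 0.24 in the normal diet libraries. Over 11522 other coding genes it was -0.69 in high fat library 3, and 0.16 and 0.10 in the other high fat libraries, against 0.17, 0.45 and 0.32 in the normal diet libraries. The part of GC content in the differences between diets was not tested. The summed log2 ratio of lipid enzymes to peptidases was 0.11 higher on the high fat diet with all libraries and -0.01 without high fat library 3.

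**Figure D4:**
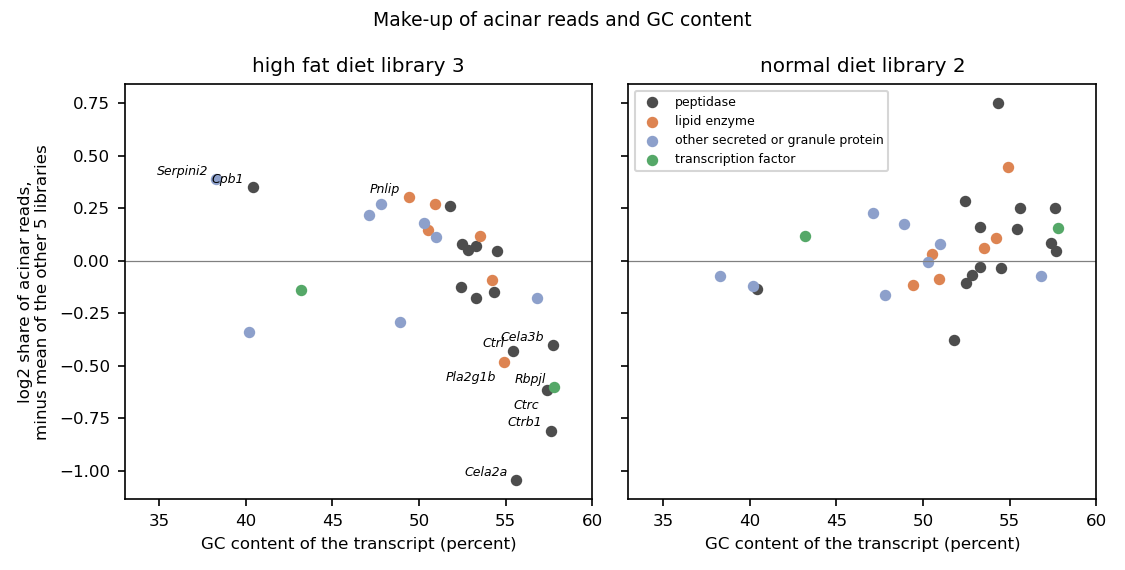
Departure of each acinar gene's share of acinar reads from the mean of the other 5 libraries (log2, y axis) against the GC content of its transcript (percent, x axis), in high fat library 3 and normal diet library 2. In high fat library 3 the correlation is -0.55 and Cela2a lies lowest at -1.04; in normal diet library 2, shown because its correlation over other coding genes is the most positive, it is 0.34.

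Loci outside the list were ranked by the likeness of their TMM-scaled log2 level to the log2 summed acinar CPM. Of 12044 loci with a symbol and at least 1 CPM, 48 had an r above 0.9 over 6 libraries and 18 an r below -0.9. With library totals on both sides, added after seeing the data, 24 had an r above 0.9 and 23 below -0.9, and 11 loci were above 0.9 on both scales. The count thus depends on the scaling.

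Among the highest by TMM, those that also exceeded 0.9 with library totals were Pdia2 at 0.978 (0.943 with totals), a pancreatic disulfide isomerase, 1810018F18Rik at 0.976 (0.975), 2210010C04Rik at 0.974 (0.942), Cd55 at 0.967 (0.944), Tmed11 at 0.967 (0.945), the trypsin inhibitor Spink1 at 0.953 (0.966) and Tmem26 at 0.945 (0.933). The trefoil peptide Tff2 had 0.973 by TMM and 0.895 with totals, and Srsf12 0.943 and 0.813. The others lost most of their likeness with totals: Tesk2 had 0.974 by TMM and 0.388 with totals, Tbc1d7 0.947 and 0.637, Gm16835 0.946 and 0.164, Trp53inp1 0.946 and 0.373, and Entr1 0.959 and -0.03. Entr1 had 84.7, 90.4 and 92.3 CPM on the high fat diet, against 97.3, 100.5 and 97.5 CPM on the normal diet, so its high fat libraries were all lower, unlike the acinar sum. The lowest by TMM were Gm26947 at -0.98 (-0.87 with totals), Pop1 at -0.98 (-0.79) and 1600020E01Rik at -0.96 (-0.91). These values describe 6 libraries and carry no p.

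A list of 33 further acinar genes, such as Reg genes and amylases, gave 27 tested loci, of which 4 rose and 0 fell, against the same background of 5.95% and 4.86%. They were Rab3d, a small GTPase of secretory granules (log2 fold change 0.70, adjusted p 0.0203), Egf, the epidermal growth factor precursor (0.67, 0.0185), Nupr1, a stress-responsive nuclear protein (0.98, 0.0185), and Gatm, an enzyme of creatine synthesis with 84% of its exonic bases shared (1.26, 0.047), each from the edgeR quasi-likelihood fit and Benjamini-Hochberg adjusted. All 4 had an r with the summed acinar level of 0.21 to 0.48, below the 8 genes of the list above 0.9. With library totals on both sides, r was 0.15 to 0.44 for the 4, and 5 genes of the list were above 0.9. The median log2 fold change of the list was 0.29 under TMM and 0.10 with library totals. The most abundant of the list was 2210010C04Rik, at 381 CPM on average.

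**Figure D5:**
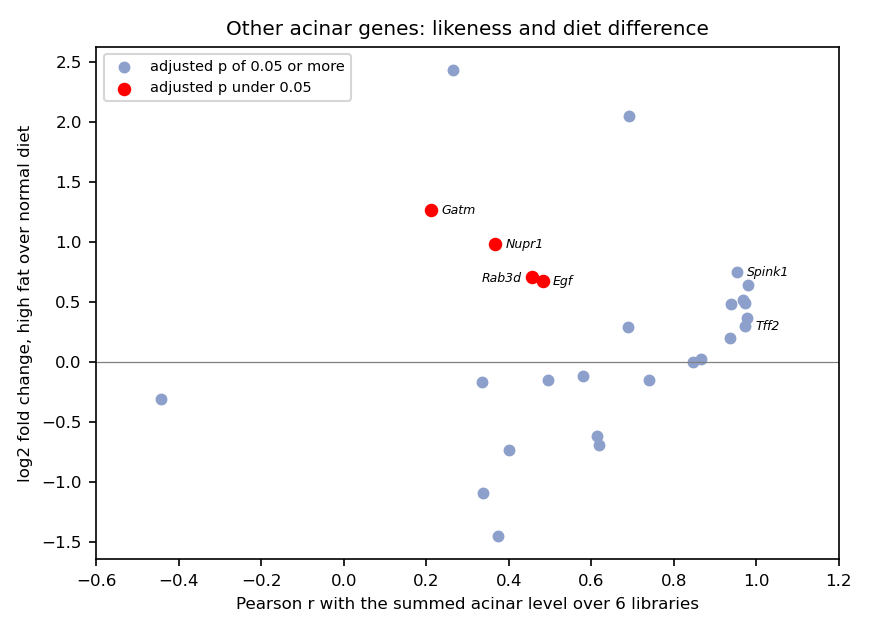
log2 fold change, high fat over normal diet (y axis, TMM), against Pearson r with the summed acinar level over 6 libraries (x axis), for the 27 tested loci of the further acinar list. The 4 red points passed an adjusted p of 0.05 (Rab3d, Egf, Nupr1 and Gatm), with r of the TMM-scaled level between 0.21 and 0.48.

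No gene of the lists for other pancreatic cells or the secretory pathway had an r above 0.9 with the acinar sum, by TMM or by library totals. The counts of calls below stand against 5.95% of all loci higher and 4.86% lower, and with so few genes in each list they are descriptions only. Endocrine genes took 13.8%, 14.1% and 12.2% of counted reads on the high fat diet and 11.5%, 12.6% and 12.5% on the normal diet, and 4 of 11 tested rose (Iapp, Chgb, Pcsk1, G6pc2), with 0 lower. Slc2a2 and Nkx6-1 were listed at 0 in that set, with 100% and 99.5% of their exonic bases shared with another locus. Sst, Mafa and Pdx1 were linked to no locus and are absent from the endocrine sum. Of the exonic bases of Ins1 and Ins2, 61.6% and 18.4% are shared with another locus. Duct genes took 0.00528%, 0.0073% and 0.00659% on the high fat diet and 0.00673%, 0.00608% and 0.00563% on the normal diet, with 0 of 7 called; Krt7 was listed at 0 and wholly shared. Neither the endocrine nor the duct sum separated the diets. Stroma genes took 0.0405% to 0.0523% on the high fat diet and 0.0376% to 0.0505% on the normal diet. Of these, 2 of 9 rose (Rgs5, a pericyte gene, and Acta2, smooth muscle actin) with 0 lower. These 2 were also the only ones of the 9 with a log2 fold change above 0. The median of the 9 was -0.53 under TMM and -0.74 with library totals. Rgs5, at 302.9 CPM on average, was the most abundant of them and weighs most in the sum. Endothelial genes took 0.0292% to 0.035% on the high fat diet and 0.0333% to 0.0377% on the normal diet, with 0 of 6 called. Macrophage genes took 0.00295% to 0.00421% on the high fat diet and 0.00421% to 0.00517% on the normal diet, and 1 of 3 tested fell (Csf1r, the receptor for a macrophage growth factor, log2 fold change -0.50). The macrophage sum was lower in every high fat library than in any normal diet library, with the nearest pair equal to the digits given, a direction in which 34.9% of all single loci also did not overlap. Cd68 was listed at 0 and wholly shared with another locus, so it says nothing about macrophages here. Lyz2 and Cd14 were linked to no locus and are absent from the macrophage sum. Genes of the secretory pathway took 0.914%, 0.894% and 0.848% on the high fat diet against 0.735%, 0.772% and 0.725% on the normal diet, with 4 of 7 higher (the chaperones Hspa5 and Hsp90b1, the disulfide isomerase Pdia4 and the signal peptidase subunit Spcs1) and 0 lower. The high fat libraries all lay above the normal diet libraries in this sum, as did 5.81% of all single loci. The part of these lists in the acinar values was not tested.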

How the data were processed

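Total RNA libraries of islets from 3 high fat diet and 3 normal diet samples were used, grouped by their labels. The submitters' processing notes list mm9 as build and name edgeR, HTSeq (0.5.4p3), Cufflinks (2.1.1) and TopHat2 (2.0.8); their order, settings and use of strand are not given in the sources used here. The authors deposited raw read counts for 39470 loci. The members and lists were chosen with earlier results of these data known. The locus names rest on matching exon and intron lengths to GENCODE M21, with 19809 loci linked; no coordinates were converted. Where 2 genes overlap, reads cannot be told apart without strand.

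Counts were tested with edgeR 4.0.16 (quasi-likelihood, TMM, R 4.3.3, limma 3.58.1) on the loci that passed filterByExpr, with Benjamini-Hochberg adjustment over all 23983, with DESeq2 1.42.0 as an alternative. The script was tested on simulated data. Named genes were those called, the 4 with the highest level per length in each class, the 2 highest and 2 lowest fold changes, and, outside the list, the 15 most and 3 least alike loci, 1 of which is not reported here. Alternatives were other scalings, no low-count filter, each library left out, a replicate block, and a stricter rule on shared exons.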

Additional observations from a re-analysis of the deposited data

How the results depend on the processing

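Of 204 alternative values of the 17 named members, 173 kept their direction and side of the threshold, 17 reversed (6 members), 10 passed the threshold that they had missed (6 members) and 4 lost it (Try5). In the fit of all libraries 1 member was higher and 0 were lower. DESeq2 called 11 of 30 higher, against 11.8% of all loci, and the replicate block 6 of 31, against 0.225% of all loci. Leaving out 1 library gave 0 to 2 higher and 0 to 1 lower. In those fits 0 to 12.4% of all loci were higher and 0 to 7.87% lower, both highest without high fat library 3. Without normal diet library 1, 2 or 3, 0 of all loci were called. Replicate numbers did not pair the samples (correlations of the deviations -0.07, 0.07 and -0.01), so the block has no basis in the design. The median log2 fold change ran from 0.32 (without normal diet library 1) to 0.85 (without high fat library 1). The difference in summed share was 0.247 percentage points, with 0.111 to 0.431 over libraries left out, 0.364 when scaled by TMM, 0.195 without Pnlip and 0.248 without Amy1 and Klk1, the last chosen after seeing the data. Log2 fold changes that reversed with no library left out were those of Gp2, at -0.19 with library totals (-0.19 without member loci too), -0.0101 with no filter and -0.0266 with the block, and of Rbpjl, at -0.17 with totals, -0.16 without member loci and -0.0471 with the block. With 1 library left out, the ranges that crossed 0 were -0.22 to 0.57 for Cela2a, -0.24 to 0.29 for Gp2, -0.27 to 0.18 for Nr5a2, -0.49 to 0.0553 for Pla2g1b, -0.62 to 0.0675 for Prss3 and -0.40 to 0.34 for Rbpjl. The log2 ratio of lipid enzymes to peptidases was 0.11 higher on the high fat diet, -0.0044 by mean log2 counts and -0.0079 to 0.18 with 1 library left out. The causes were not tested. Low counts limit what can be seen of Prss1 and Ptf1a.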
